A study of Homo sapiens with 12 samples.

Results

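The comparison described here is that of side population (SP) cells with the remaining, non-SP cells of untreated A549, a human lung adenocarcinoma cell line, across all genes measured. Its members are the 3 SP arrays and the 3 non-SP arrays of cells that received no antibody, chosen by their labels, 6 of the 12 arrays of the study, and each SP array was set against the non-SP array of the same replicate number. The other 6 arrays hold the same sorted fractions after a monoclonal EpCAM antibody, given at 100 µg/ml for 48 h. All cells, treated or not, were incubated with the dye Hoechst at 5 µg/ml for 90 min, stained with propidium iodide to mark dead cells, and sorted on a flow cytometer. Labelled RNA was made from 200 ng of total RNA and hybridised to an Affymetrix 3' expression array. The labels give the same treatment text for every sample, so the untreated groups are those whose titles name no antibody. They call the replicates biological, which is taken as separate cultures, and they do not state the sorting gates or the share of cells that fell into the SP.

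Hoechst enters living cells and binds DNA, and cells that export it through membrane pumps stay dim and form the SP. The pump best known for this export is ABCG2, an ABC transporter of the plasma membrane, and reserpine, used in the assay as a control, blocks the export. The SP has been studied in tumour lines as a fraction that may be enriched in drug-resistant or stem-like cells, although the gate itself selects only on dye export at the time of sorting.

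Both fractions carried the markers of the labelled cell type. The keratin genes KRT8 (12.80 to 13.85 on the log2 scale over the 6 arrays) and KRT18 (14.37 to 14.76) were high, and KRT19, the epithelial cadherin CDH1 and EPCAM were above the filter on dim probe sets. Of the markers of other cell types with a probe set, 2 of 4 leukocyte genes passed the filter (CD3E at 6.23 to 6.94 and CD14 at 6.32 to 7.2, with PTPRC and CSF1R below it), 1 of 4 endothelial genes (PECAM1 at 6.33 to 7.02, with CDH5, VWF and KDR below) and 3 of 6 fibroblast genes (COL1A1 at 8.0 to 10.46, PDGFRB and DCN, with PDGFRA, LUM and COL3A1 below). Of 5 type II pneumocyte genes 4 passed, SFTPB, SFTPC, NKX2-1 and NAPSA, at 5.17 to 8.0 over the arrays, and SFTPD did not. Differences are SP minus non-SP on the log2 scale, averaged over the 3 pairs, with the SE of a limma fit over the pairs. A gene is said to have risen or fallen in SP cells when its p, adjusted by Benjamini-Hochberg over all 14649 genes tested, was under 0.05. In RNA pooled from many cells, a gene lower in each cell and a gene expressed by fewer cells cannot be told apart.

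The 2 fractions were close to each other. The SP minus non-SP differences of all genes had a median of 0.0181 and an SD of 0.129, and 89 genes differed by more than 0.5 in either direction (21 higher and 68 lower in the SP). The 4 genes that differed by more than 1 were all lower in SP cells. An unadjusted p under 0.05 was found for 1301 genes (8.88%), of which 737 (5.03%) were higher and 564 (3.85%) lower in the SP; after each pair was centred on its median the split was 570 to 749. In all, 14 genes passed, which is 0.0956% of those tested. The 4 rises (0.0273%) were RND1, CXCL2, EDN1 and ATF3. The 10 falls (0.0683%) were IL11, SPOCK1, CARD8-AS1, COL11A1, DPYSL3, COL5A1, ARRDC4, BCL2A1, TNFRSF10D and LYPD1. For 7 of the 14 the 3 SP and 3 non-SP arrays did not overlap at all, as for 3.56% of all genes. With 1 pair omitted, 4 genes passed (pair 1) or 0 (pair 2 or pair 3), and 0 passed when anti-EpCAM pair 2 was omitted from the estimate of spread. A robust estimate that follows expression level raised the count to 61, and 1 that follows the mean difference lowered it to 0. The plot of difference against expression level shows where these genes lie among all genes.

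**Figure D1:**
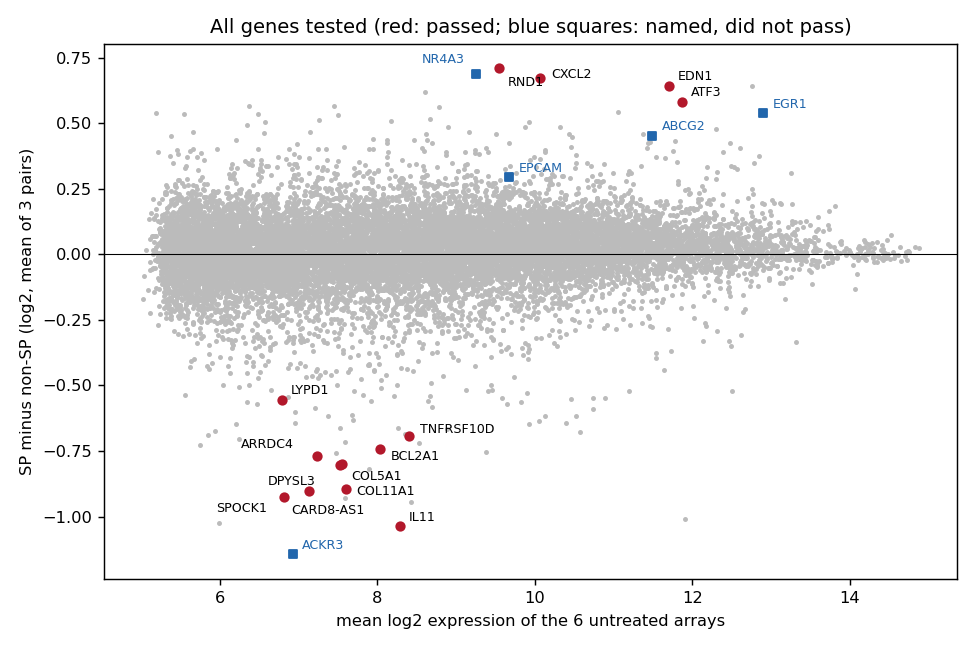
SP minus non-SP difference (log2, mean of 3 untreated pairs) against the mean log2 expression of the 6 untreated arrays, with 1 point per gene for 14649 genes. Red points are the 14 genes that passed, 4 above 0 and 10 below, and blue squares are 5 named genes that did not pass, among them ABCG2 at 0.45.

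ABCG2, the dye pump, was the gene with the most direct bearing on the sort. On the non-SP arrays of pairs 1, 2 and 3 it measured 11.15, 11.18 and 11.47, and on the SP arrays 11.62, 11.55 and 11.996. Each SP array lay above all 3 non-SP arrays, a pattern shown by 2.26% of all genes. The difference was 0.45 ± 0.08 (95% confidence interval 0.28 to 0.63), which is 1.37-fold, and did not pass (adjusted p = 0.0869). In the anti-EpCAM pairs ABCG2 rose by 0.53 ± 0.08 (adjusted p = 0.0469), and the difference between both settings was 0.07 ± 0.11.

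Of 18 listed drug efflux transporters 14 were tested, 0 passed, and 3 were higher in SP cells in all 3 pairs (21.4%), against 22.1% of all genes. The median of these transporters was 0.015, next to 0.0181 for all genes. ABCC1, which exports glutathione conjugates and several anticancer drugs, measured 11.71, 11.86 and 12.11 on the non-SP arrays and 11.82, 11.86 and 11.90 on the SP arrays. Its difference of -0.04 ± 0.09 had a 95% confidence interval of -0.23 to 0.15, and its other probe set had the opposite sign. ABCC3, a related organic anion exporter, had -0.13 ± 0.08, and ABCB1, the multidrug pump P-glycoprotein, was below the filter.

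IL11, a cytokine of the interleukin-6 family that signals through gp130 and is induced by TGF-beta in epithelial and stromal cells, showed the largest change among the genes that passed. Its non-SP values were 8.69, 9.08 and 8.63 and its SP values 7.88, 7.96 and 7.44 in pairs 1, 2 and 3. All SP arrays were below all non-SP arrays, which 1.3% of genes showed. IL11 fell by 1.04 ± 0.13 on the log2 scale, and was 2.05-fold higher in non-SP cells (adjusted p = 0.0276). Its second kept probe set, which was dimmer, had a difference of -0.39.

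CXCL2, a chemokine that draws neutrophils through the receptor CXCR2, measured 9.68, 9.99 and 9.53 on non-SP arrays and 10.54, 10.60 and 10.07 on SP arrays. The lowest SP array lay just above the highest non-SP array. CXCL2 rose by 0.67 ± 0.08 (1.59-fold, adjusted p = 0.0276), on a single kept probe set. The CXCL2 probe sets below the filter had 0.01 and -0.297. The close relatives of CXCL2, CXCL1 (0.43 ± 0.10, adjusted p = 0.199) and CXCL3 (0.44 ± 0.09, adjusted p = 0.141), were higher in SP cells in all 3 pairs. Neither passed, and the same held for CXCL8, a further neutrophil chemokine (0.35 ± 0.10). CCL2, which draws monocytes, ran the other way in pairs 2 and 3, with differences of 0.13, -0.61 and -0.56 and a mean of -0.35 ± 0.14 (adjusted p = 0.52).

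The promoter sequences of these genes were searched for short motifs, and those of passing genes that held a match are printed here so that the letters can be read. Of the 14 passing genes, 11 had a promoter in RefSeq's table for GRCh38.p14, each running from 250 bases before to 50 bases after the start of the gene. An NF-kB motif, searched like the others on both strands, occurred in the promoter of CXCL2 (chr4:74099146-74099445, minus strand) and in 1.41% of all 27305 promoters (1.46% of those of genes tested). The match in capitals, GGGAATTTCC, starts 78 bases before the gene's start.
CXCL2: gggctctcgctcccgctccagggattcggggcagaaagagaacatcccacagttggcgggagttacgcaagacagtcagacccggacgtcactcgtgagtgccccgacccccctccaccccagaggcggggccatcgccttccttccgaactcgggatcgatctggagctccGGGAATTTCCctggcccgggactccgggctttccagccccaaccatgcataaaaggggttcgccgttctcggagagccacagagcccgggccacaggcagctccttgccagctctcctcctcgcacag

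The AP-1 motif TGANTCA, bound by dimers of FOS and JUN proteins, occurred in the promoters of IL11 (chr19:55370414-55370713, minus strand), ARRDC4 (chr15:97960453-97960752, plus strand) and LYPD1 (chr2:132671477-132671776, minus strand, with 2 matches that abut). It occurred in 7.76% of all promoters and in 5.1% of the 11695 promoters of genes tested. The E-box CACGTG was found in ARRDC4 and LYPD1, in 7.43% of all promoters and in 9.81% of those of genes tested. Capitals mark both motifs in the sequences, each read 5' to 3' along the gene's strand.
IL11: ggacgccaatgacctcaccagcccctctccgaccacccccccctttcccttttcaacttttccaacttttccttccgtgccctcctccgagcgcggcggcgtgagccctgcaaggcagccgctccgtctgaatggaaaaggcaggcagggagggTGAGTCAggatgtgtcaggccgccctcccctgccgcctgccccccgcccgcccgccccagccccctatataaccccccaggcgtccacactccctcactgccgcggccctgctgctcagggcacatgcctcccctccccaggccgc
ARRDC4: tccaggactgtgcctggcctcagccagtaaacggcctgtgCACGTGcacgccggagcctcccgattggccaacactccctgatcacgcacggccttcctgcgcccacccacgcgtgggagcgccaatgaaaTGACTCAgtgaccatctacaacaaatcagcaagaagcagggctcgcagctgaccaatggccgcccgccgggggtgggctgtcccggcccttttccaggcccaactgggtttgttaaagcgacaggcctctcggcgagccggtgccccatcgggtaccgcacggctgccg
LYPD1: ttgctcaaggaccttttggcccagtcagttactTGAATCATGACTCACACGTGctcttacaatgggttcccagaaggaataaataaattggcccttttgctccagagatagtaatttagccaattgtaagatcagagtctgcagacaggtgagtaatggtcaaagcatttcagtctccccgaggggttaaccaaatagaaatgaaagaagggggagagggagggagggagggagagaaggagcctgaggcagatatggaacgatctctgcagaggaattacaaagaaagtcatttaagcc
The cyclic AMP response element TGACGTCA (1.98% of all promoters, 3.04% of those of genes tested) and the CArG box of serum response factor (1.29% and 1.07%) were in none of the 11. A match is a description of the letters and not of a bound factor.

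Of 25 listed NF-kB targets, chemokines and cytokines, 21 were tested. CXCL2 rose and IL11 fell, where 0.0273% of all genes rose and 0.0683% fell. In all 3 pairs 8 were higher in SP cells (38.1%) and 2 lower (9.52%), against 22.1% and 12.5% of all genes. The list median was 0.09. PTGS2, the inducible prostaglandin synthase, had 0.35 ± 0.09 (adjusted p = 0.239).

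Immediate-early transcription factors, which respond within minutes to growth factors, stress or handling, leaned towards SP cells. ATF3, a stress-induced factor of the CREB family, measured 11.35, 11.68 and 11.70 on non-SP arrays and 11.96, 12.09 and 12.44 on SP arrays, without overlap. It rose by 0.58 ± 0.08 (1.496-fold, adjusted p = 0.0467), and its other kept probe sets had 0.54 and 0.14. The ATF3 call held in 2 of 18 alternative settings and was lost in 16, for example after centring on the median (adjusted p = 0.0595). Of 24 listed factors 23 were tested, 1 passed, and 17 were higher in SP cells in all 3 pairs (73.9%), against 22.1% of all genes. The list was chosen with earlier results of these data known. Its members were brighter than genes at large, with a median non-SP level of 11.74 against 8.38, and genes of like level were not compared. The list median was 0.207, and its medians in pairs 1, 2 and 3 were 0.245, 0.122 and 0.225. The 3 factors closest to passing were FOS, EGR1 and NR4A3.

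FOS, a subunit of AP-1, measured 11.76, 12.17 and 12.28 in non-SP cells and 12.17, 12.59 and 12.89 in SP cells, so each pair separated while the groups overlapped. Its difference was 0.48 ± 0.07 (adjusted p = 0.0615). EGR1, a zinc finger factor, measured 12.50, 12.65 and 12.77 in non-SP cells and 12.92, 13.14 and 13.47 in SP cells, a difference of 0.54 ± 0.09 (adjusted p = 0.0697). The EGR1 groups did not overlap, but 1 of its 2 other kept probe sets had the opposite sign. The nuclear receptor NR4A3 had pair differences of 0.76, 0.28 and 1.01 and a mean of 0.69 ± 0.12 (adjusted p = 0.0828), while NR4A1 and NR4A2 had 0.28 ± 0.14 and 0.29 ± 0.08. MYC, a growth regulator, measured 12.38, 12.43 and 12.42 in non-SP cells and 12.75, 12.67 and 13.02 in SP cells (0.40 ± 0.09, adjusted p = 0.161). FOSL1 had 0.46 ± 0.10 and KLF2 0.38 ± 0.09, while JUN, the partner of FOS, had -0.005 ± 0.073. The members of the list thus ranged from -0.06 to 0.69.

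EDN1 encodes the precursor of endothelin-1, a peptide that constricts vessels and acts on epithelial and tumour cells through G protein-coupled receptors. The non-SP arrays gave 11.06, 11.34 and 11.74 and the SP arrays 11.76, 11.81 and 12.50. The lowest SP array lay above the highest non-SP array by a small margin, and EDN1 rose by 0.64 ± 0.08 (1.56-fold, adjusted p = 0.0276). Its other kept probe sets, both dimmer, had 0.02 and 0.18, so the call rests on the brightest. With the mean of the EDN1 probe sets the difference was 0.28 (adjusted p = 0.521). ECE1, the enzyme that releases the active peptide, had -0.05 ± 0.08, and the endothelin receptor genes EDNRA and EDNRB were not among the genes tested.

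RND1 measured 8.30, 9.53 and 9.74 on non-SP arrays and 9.15, 9.996 and 10.56 on SP arrays. Pair 1 was lower than the others in both fractions, so the groups overlapped while each pair separated. RND1 rose by 0.71 ± 0.09 (1.64-fold, adjusted p = 0.0276).

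Genes of EGF receptor signalling and its ERK feedback held 0 calls among 21 tested members, with a median of 0.159. In all 3 pairs 10 were higher in SP cells (47.6%) and 1 lower (4.76%), against 22.1% and 12.5% of all genes. EREG, a ligand of the EGF receptor, measured 11.22, 11.17 and 11.04 in non-SP cells and 11.83, 11.38 and 11.60 in SP cells. That difference was 0.46 ± 0.11 (adjusted p = 0.195), and the groups did not overlap. The ERK phosphatases DUSP5 (0.38 ± 0.10) and DUSP6 (0.37 ± 0.09) leaned the same way. EGFR itself had -0.36 ± 0.11 (adjusted p = 0.328), with a sign opposite to 6 of its 8 other kept probe sets. Among further genes named here with no call, at least 1 other kept probe set also had the opposite sign for ABCC3, CD44, MKI67, KLF2, JUN, COL4A6, NID1, TNFRSF10A, PDK1, COL5A2 and COL5A3.

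**Figure D2:**
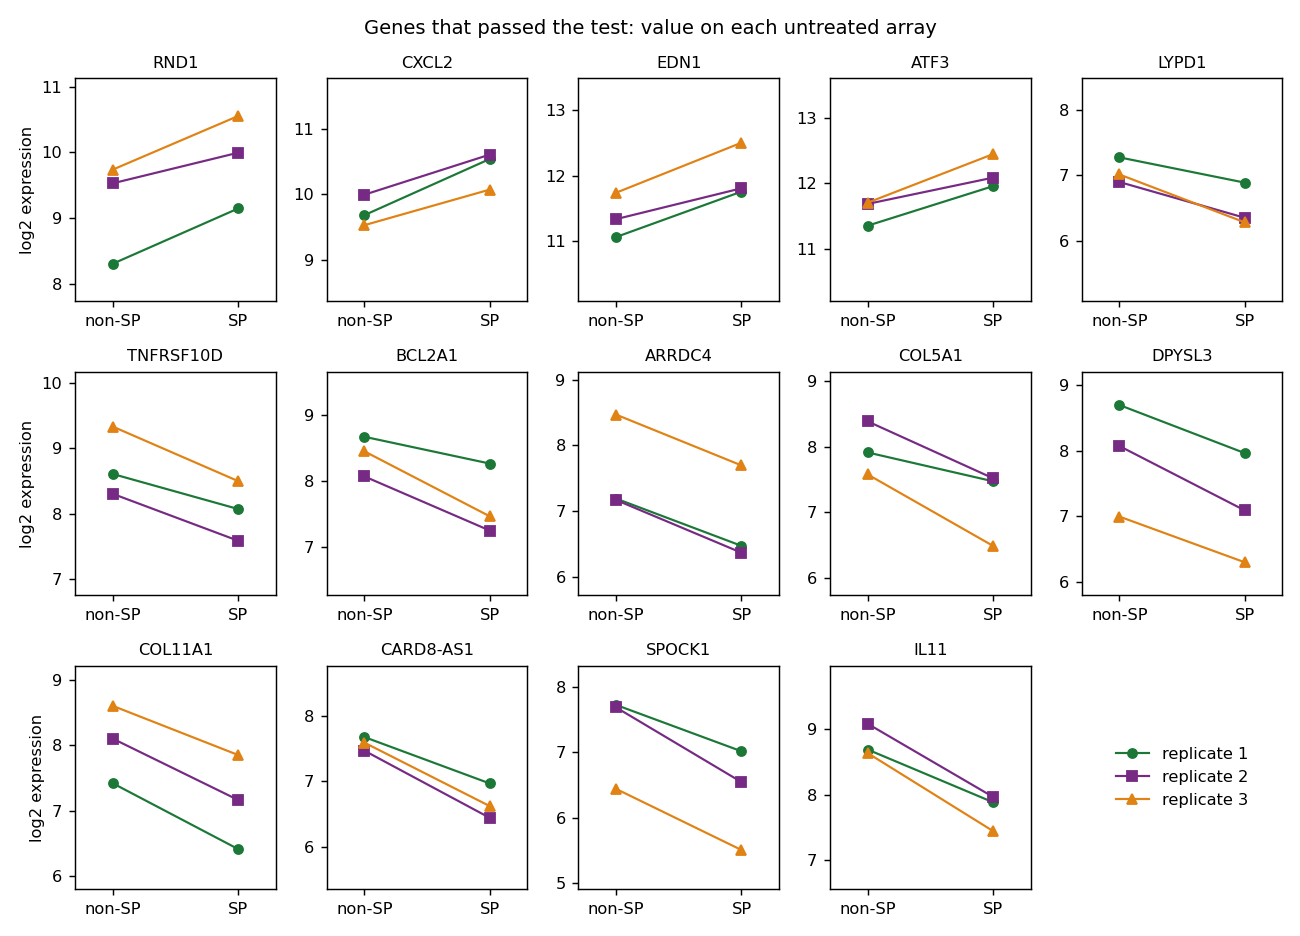
Log2 expression of the 14 genes that passed, on the 3 non-SP and 3 SP arrays of untreated cells, with a line joining the arrays of 1 replicate number; axes span the same number of log2 units. Every line runs up for RND1, CXCL2, EDN1 and ATF3 and down for the other 10, and the height of a line differs between replicates by more than the change along it for genes such as SPOCK1 and COL11A1.

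Of the 10 falls, 3 were genes of the extracellular matrix. The share of matrix genes among all genes tested was not counted, so no enrichment was measured. The matrix lists below were chosen with earlier results of these data known. SPOCK1, a secreted proteoglycan of the testican family, measured 7.72, 7.68 and 6.44 on non-SP arrays and 7.01, 6.54 and 5.51 on SP arrays. Pair 3 was low in both fractions, and each SP array was below its own non-SP array. SPOCK1 fell by 0.93 ± 0.09 on the log2 scale and was 1.90-fold higher in non-SP cells, with the smallest adjusted p of all genes (0.0195).

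Fibrillar collagens form the rope-like fibres of connective tissue, and types V and XI are the minor chains that start and limit fibre growth. COL11A1 gave 7.42, 8.10 and 8.60 in non-SP cells and 6.42, 7.17 and 7.85 in SP cells, a fall of 0.90 ± 0.11 (adjusted p = 0.0276), and its other kept probe set had -0.83. COL5A1 gave 7.91, 8.38 and 7.57 in non-SP cells and 7.47, 7.52 and 6.48 in SP cells, without overlap. It fell by 0.80 ± 0.11 (adjusted p = 0.0398), and its other probe sets had -0.76 and -0.70. The chains that partner these, COL5A2 (0.04 ± 0.09), COL5A3 (0.16 ± 0.08) and COL11A2 (0.02 ± 0.09), did not pass.

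COL1A1, the main chain of type I collagen, gave 8.18, 9.51 and 10.46 in non-SP cells and 8.004, 8.63 and 9.97 in SP cells, a difference of -0.52 ± 0.12 (adjusted p = 0.181), and 1 of its 3 other kept probe sets had the opposite sign. Its partner COL1A2 was dim, at 5.44 to 5.89, with 0.20 ± 0.08. Of 22 listed fibrillar collagen and collagen processing genes 19 were tested, 2 fell and 0 rose, where 0.0683% of all genes fell. In all 3 pairs 9 were lower in SP cells (47.4%), against 12.5% of all genes. The list median was -0.082, with pair medians of 0.021, -0.069 and -0.123. P4HA3, a prolyl hydroxylase subunit, had -0.44 ± 0.10.

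Basement membrane collagen IV is built from paired gene products, COL4A1 with COL4A2 and COL4A3 with COL4A4 and COL4A5. All 6 chains had a negative mean difference. COL4A2 measured 10.50, 10.63 and 9.62 in non-SP cells and 10.07, 9.98 and 8.76 in SP cells, a difference of -0.65 ± 0.11 (adjusted p = 0.0764). COL4A1 had -0.54 ± 0.11, COL4A3 -0.82 ± 0.17, COL4A5 -0.37 ± 0.12, COL4A6 -0.35 ± 0.14 and COL4A4 -0.22 ± 0.11, none of which passed.

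Of 23 listed basement membrane and matrix genes 19 were tested, SPOCK1 fell and 0 rose, where 0.0683% of all genes fell. In all 3 pairs 10 were lower in SP cells (52.6%), against 12.5% of all genes. The list median was -0.248, and in pairs 1, 2 and 3 it was -0.088, -0.146 and -0.403. Nidogen NID1, which links laminin to collagen IV, had -0.32 ± 0.08, and the integrin ligand TGFBI had -0.33 ± 0.08, both without overlap between groups. THBS1, thrombospondin 1, was above 0 in each of the 3 pairs (0.21 ± 0.09).

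**Figure D3:**
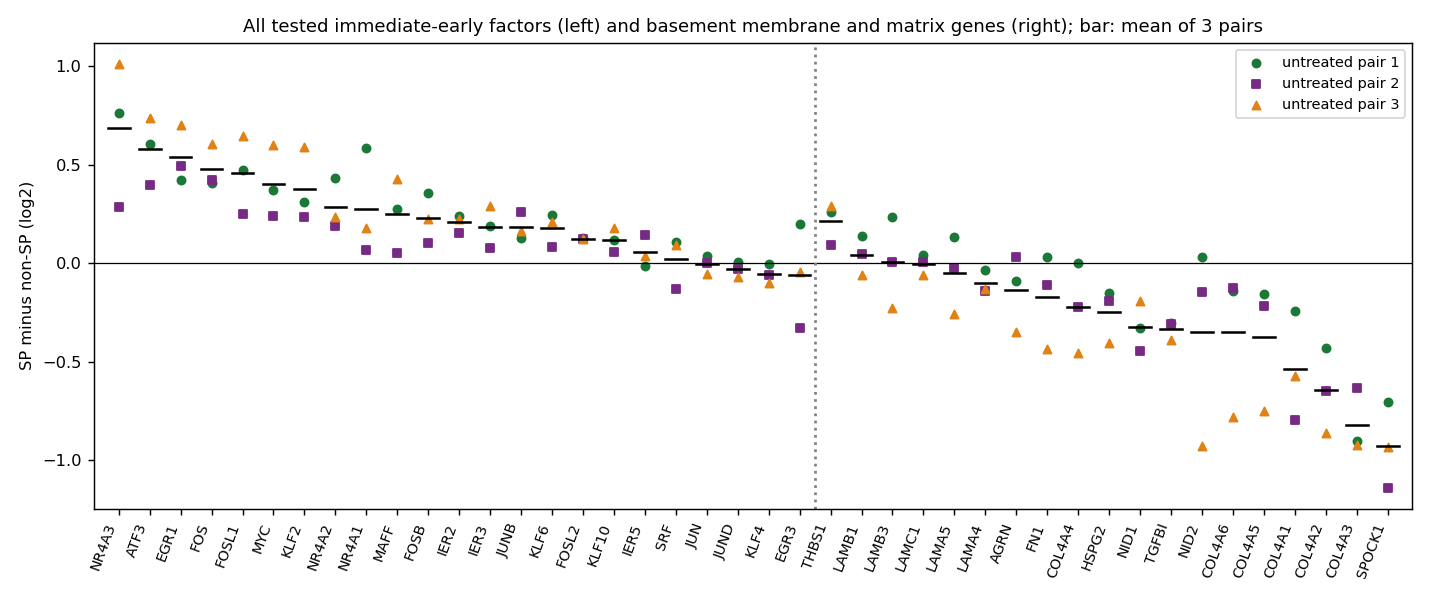
SP minus non-SP difference (log2) in each untreated pair (symbols) and their mean (bar) for all 23 tested immediate-early factors, left of the dotted line, and all 19 tested basement membrane and matrix genes, right of it. The means run from 0.69 for NR4A3 to -0.06 on the left and from 0.21 for THBS1 to -0.93 for SPOCK1 on the right.

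Genes of the mesenchymal state held 0 calls among 14 tested. N-cadherin CDH2 had -0.38 ± 0.10 (adjusted p = 0.238), the smooth muscle actin ACTA2 -0.23 ± 0.07. TWIST1 ran the other way, with pair differences of 0.066, 0.176 and 0.331 and a mean of 0.19 ± 0.08. Of these 14 genes 5 had a mean difference above 0 and 9 below, and the list median was -0.086. Of 19 tested epithelial junction and keratin genes 0 passed, with a median of 0.074.

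EPCAM, the adhesion molecule whose antibody the study used, measured 8.73, 9.28 and 10.58 in non-SP cells and 9.16, 9.45 and 10.87 in SP cells. The replicates spanned a wider range than the fractions, and each SP array was above its own non-SP array. The difference was 0.29 ± 0.08 (95% confidence interval 0.12 to 0.47, adjusted p = 0.266). Of 18 tested EpCAM partners and signalling genes 0 passed, and the median was 0.029. In all 3 pairs 8 were higher in SP cells (44.4%) and 2 lower (11.1%), against 22.1% and 12.5% of all genes. TSPAN8, a tetraspanin that associates with EpCAM, had pair differences of 0.17, -0.51 and -1.15.

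Of the 10 genes that fell, 2 act in cell death, and the share of such genes among all genes tested was not counted. BCL2A1, a BCL2 relative that blocks apoptosis and is a target of NF-kB, measured 8.68, 8.07 and 8.45 on non-SP arrays and 8.27, 7.24 and 7.46 on SP arrays. The SP array of pair 1 lay above the non-SP array of pair 2, so the groups overlapped, and the pair differences were -0.41, -0.83 and -0.99. BCL2A1 fell by 0.74 ± 0.11 (adjusted p = 0.0482), a call that held in 5 of 18 alternative settings and was lost in 13, among them quantile normalization (adjusted p = 0.0573). TNFRSF10D, a decoy receptor that binds the death ligand TRAIL without passing on its signal, measured 8.61, 8.30 and 9.33 in non-SP cells and 8.07, 7.59 and 8.50 in SP cells. It fell by 0.69 ± 0.09 (adjusted p = 0.0277).

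The signalling TRAIL receptors TNFRSF10A (-0.35 ± 0.18) and TNFRSF10B (0.01 ± 0.08) did not pass. Of 23 tested BCL2 family and death receptor genes 2 fell and 0 rose, where 0.0683% of all genes fell and 0.0273% rose. In all 3 pairs 6 were higher and 6 lower in SP cells (26.1% each), against 22.1% and 12.5% of all genes. The list median was 0.007. PMAIP1, which promotes apoptosis, had pair differences of -1.28, -0.36 and -0.29 (adjusted p = 0.487). Among 21 tested p53 targets 0 passed, with a median of -0.068. In all 3 pairs 8 were lower in SP cells (38.1%) and 3 higher (14.3%), against 12.5% and 22.1% of all genes. SPATA18, which acts in mitochondrial quality control, had -0.59 ± 0.13 and the RNA-binding factor ZMAT3 -0.51 ± 0.13, while the cell cycle inhibitor CDKN1A had -0.09 ± 0.10.

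ARRDC4 is an arrestin-domain protein related to TXNIP, whose genes respond to glucose and which limit glucose uptake. It measured 7.19, 7.17 and 8.47 on non-SP arrays and 6.47, 6.36 and 7.70 on SP arrays. Pair 3 stood higher in both fractions, and the pair differences of -0.72, -0.80 and -0.78 were nearly equal. ARRDC4 fell by 0.77 ± 0.10 (1.702-fold higher in non-SP, adjusted p = 0.0276). TXNIP had pair differences of -0.22, 0.03 and -0.55 (-0.25 ± 0.11), and the related ARRDC3 had 0.40 ± 0.10.

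Of 26 tested hypoxia, glycolysis and glucose-sensing genes ARRDC4 alone passed, where 0.0683% of all genes fell. In all 3 pairs 14 were higher in SP cells (53.8%) and 1 lower (3.85%), against 22.1% and 12.5% of all genes. The list median was 0.061. SLC2A3, a glucose transporter, had 0.46 ± 0.11 (adjusted p = 0.218). DDIT4, an mTOR inhibitor, had 0.31 ± 0.08, and PDK4 and PDK1, kinases that hold back pyruvate oxidation, had 0.35 ± 0.10 and 0.29 ± 0.09.

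The other genes that fell were DPYSL3, LYPD1 and CARD8-AS1. DPYSL3, a cytoskeletal protein of growing axons, measured 8.70, 8.07 and 6.997 in non-SP cells and 7.97, 7.09 and 6.30 in SP cells. It fell by 0.80 ± 0.09 (adjusted p = 0.0276), and its dimmer probe set had -0.43. LYPD1, a membrane-anchored protein of the Ly6 family that binds nicotinic receptors, measured 7.27, 6.90 and 7.01 in non-SP cells and 6.89, 6.35 and 6.28 in SP cells. All SP arrays were below all non-SP arrays by a small margin, and LYPD1 fell by 0.55 ± 0.08 (adjusted p = 0.0482). That call held in 3 of 18 alternative settings and was lost in 15, among them quantile normalization (adjusted p = 0.0594).

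CARD8-AS1, a noncoding RNA antisense to the inflammasome gene CARD8, measured 7.68, 7.47 and 7.59 in non-SP cells and 6.97, 6.44 and 6.62 in SP cells, without overlap. It fell by 0.90 ± 0.12 (adjusted p = 0.0276), on a single kept probe set. Of 15 tested neurite and axon guidance genes, a list chosen with earlier results known, 2 fell, 0 rose and the median was -0.047. Over all genes 0.0683% fell. The neurofilament gene NEFL had pair differences of -0.12, -0.59 and -1.13.

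**Figure D4:**
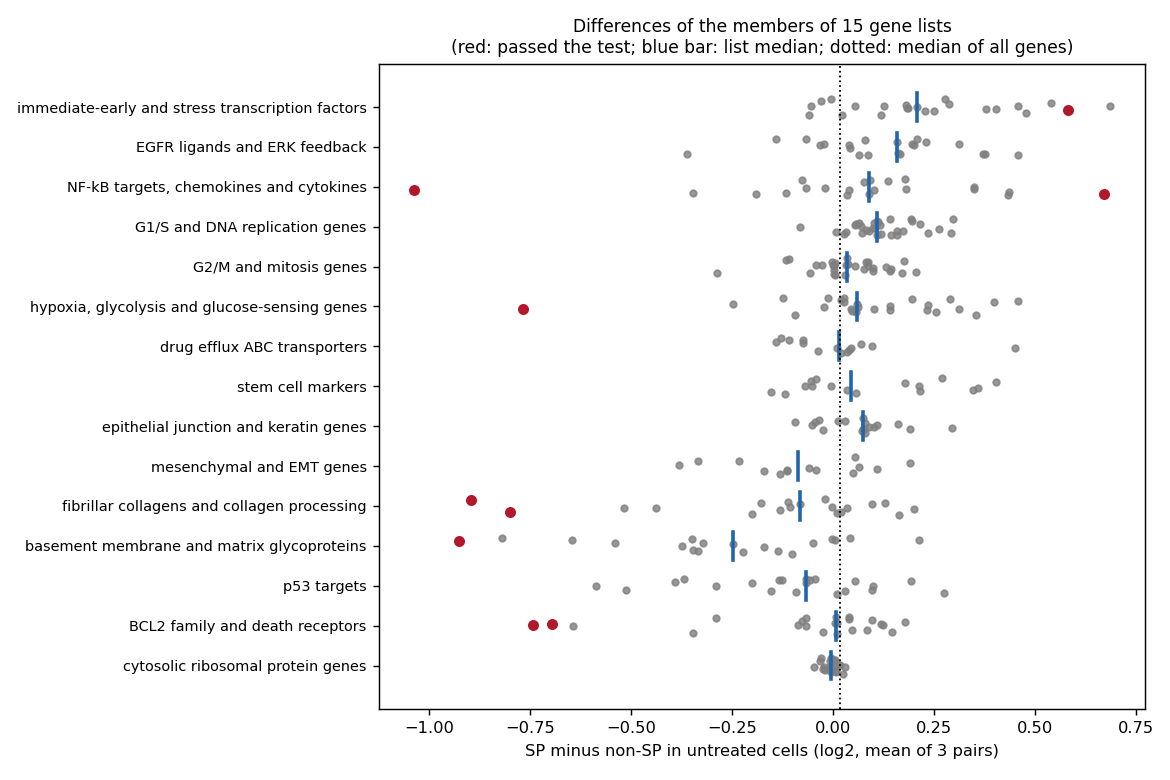
SP minus non-SP difference (log2, mean of 3 untreated pairs) of each tested member of 15 gene lists, with the list median as a blue bar and the median of all genes, 0.0181, as a dotted line. Members that passed are red; the basement membrane list has the lowest median (-0.248), the immediate-early list the highest (0.207), and ribosomal protein genes lie between -0.05 and 0.03.

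Replication genes leaned towards SP cells by small amounts. Of 31 tested G1/S and DNA replication genes 0 passed. A mean difference above 0 was found for 30 (29 after quantile normalization or centring on the median), and for 57.3% of all genes. In all 3 pairs 17 were higher (54.8%) and 0 lower, against 22.1% and 12.5% of all genes. The members were brighter than genes at large (median non-SP level 10.77 against 8.38), and genes of like level were not compared. The list median was 0.11, with pair medians of 0.055, 0.078 and 0.235. MCM10, needed to start replication forks, had 0.30 ± 0.12 and the licensing factor CDC6 0.29 ± 0.13, both with pair 3 highest. The 30 tested mitosis genes had a median of 0.034, and UBE2C, which drives exit from mitosis, had -0.29 ± 0.11. MKI67, the usual marker of cycling cells, had 0.03 ± 0.07.

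Stem cell markers held 0 calls among 16 tested, with a median of 0.046. In all 3 pairs 5 were higher in SP cells (31.2%) and 3 lower (18.8%), against 22.1% and 12.5% of all genes. The telomerase subunit TERT measured 6.29, 6.02 and 6.70 in non-SP cells and 6.63, 6.46 and 6.99 in SP cells (0.36 ± 0.09, adjusted p = 0.199). The RNA-binding protein LIN28B had 0.35 ± 0.10 and SOX2 had pair differences of 0.28, -0.03 and 0.56. CD44 had -0.12 ± 0.07 and was lower in all 3 pairs, and ALDH1A1, which oxidises retinal and is abundant in A549, had 0.03 ± 0.08 with values of 14.23 to 14.69. PROM1 and NANOG were below the filter.

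Genes that respond to foreign compounds held no call. Of 8 tested aryl hydrocarbon receptor genes 0 passed and 7 had a mean above 0 (6 after quantile normalization or with the ACTB covariate, 5 after centring), against 57.3% of all genes. TIPARP, a target and inhibitor of the receptor, had 0.64 ± 0.14 (adjusted p = 0.171) and the receptor AHR 0.39 ± 0.08, while CYP1A1, its classic target, had -0.15 ± 0.10. Of 22 tested NRF2 targets 0 passed and the median was 0.037. In all 3 pairs 12 were higher (54.5%) and 1 lower (4.55%), against 22.1% and 12.5% of all genes. These targets were brighter than genes at large (median non-SP level 12.91 against 8.38), and genes of like level were not compared. GCLC, which starts glutathione synthesis, had 0.34 ± 0.08.

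Several of the larger differences did not pass. ACKR3, a scavenging chemokine receptor, had the largest mean of all genes, -1.14 ± 0.22 (adjusted p = 0.118), with pair differences of -0.52, -1.30 and -1.61. CLDN2, a claudin that forms leaky tight junctions, had -0.94 ± 0.20, and the noncoding RNA RUSC1-AS1 had pair differences of -1.67, -0.54 and -0.58. The noncoding RNA RNF139-DT had -0.76 ± 0.13 (adjusted p = 0.0869). On the higher side were the aromatic amino acid decarboxylase DDC (0.56 ± 0.09, adjusted p = 0.0615), the cornified envelope protein SCEL (0.53 ± 0.09) and FRMD4B (0.51 ± 0.08).

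The fraction difference was also measured in antibody-treated cells, where 36 genes passed (0.246%). That count became 0 with no replicate block, 9 with the GAPDH covariate, and 5, 0 or 9 when treated pair 1, 2 or 3 was omitted. All 14 genes had the same sign there in all 3 treated pairs, and 13 passed. The spread of each gene was estimated once for both settings, and pairs that share a number across settings may not be independent. LYPD1 was the gene that did not pass, at -0.35 ± 0.08 (adjusted p = 0.163). When the change between settings was itself tested in limma, 0 genes passed and 249 had an unadjusted p under 0.05. That is below a share of 0.05 of the 14649 genes, which the threshold passes when no gene differs. SPOCK1 fell by 1.26 ± 0.09 in treated cells, and the change between settings was -0.33 ± 0.13, and 1 of the 14, SPOCK1, had an unadjusted p under 0.05 for that change. For the others the interval of that change spans 0, as for IL11 (-0.53 to 0.31), which does not show that the settings are alike.

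**Figure D5:**
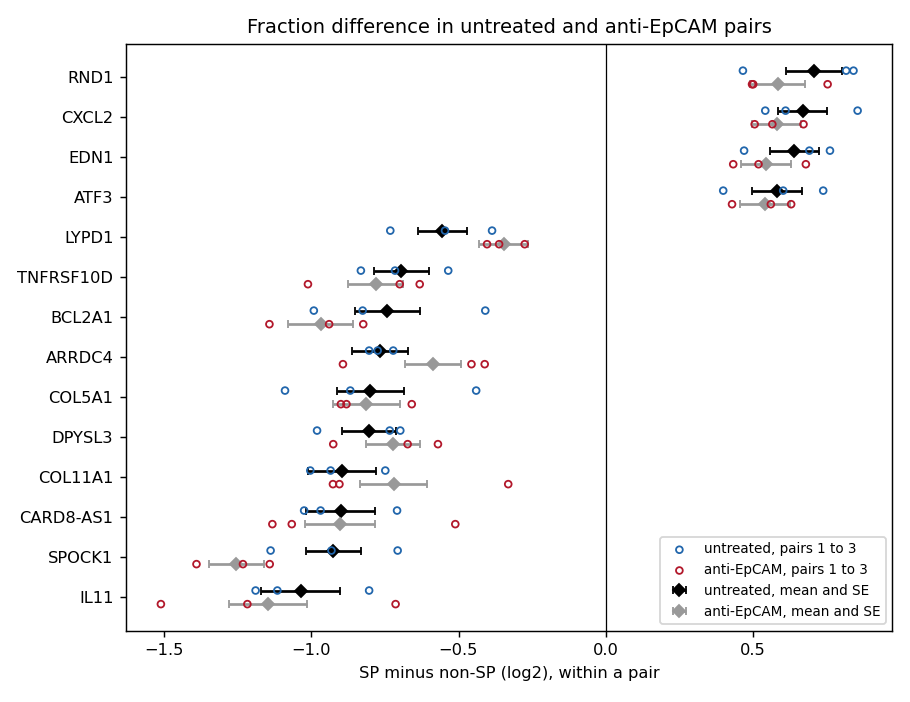
SP minus non-SP difference (log2) of the 14 genes that passed, in each untreated pair (blue circles) and each anti-EpCAM pair (red circles), with the mean and SE of each setting (black and grey diamonds). All circles of a gene lie on the same side of 0, and SPOCK1 is the gene whose means lie farthest apart, at -0.93 and -1.26.

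An RNA quality measure differed between the fractions. The 3' minus 5' signal of the ACTB control probe sets was lower in SP arrays in all 3 untreated pairs, by -0.253, -0.264 and -0.359, and that of GAPDH differed by -0.113, 0.006 and 0.114. In the anti-EpCAM pairs, which share the estimate of spread, the ACTB differences were larger and of mixed sign, at 1.858, 0.268 and -2.095, and those of GAPDH were 0.541, 0.302 and -0.376. The part of RNA quality in the calls was not tested beyond fits with either measure as a covariate. With the ACTB value as a covariate 11 genes passed, 10 of them among the 14, and all 14 kept their sign. With the GAPDH value 9 passed, 8 of them among the 14. The ACTB differences of the untreated pairs were close to each other, so they run with the fraction. The ACTB fit can therefore not separate them from the untreated fraction difference. Each call rests on reading arrays of the same number as pairs. In limma fits that took the 6 or the 12 arrays as independent no gene passed (0 calls). In those fits 91 and 56 genes had an unadjusted p under 0.05. Both counts are below a share of 0.05 of the 14649 genes, which that threshold passes when no gene differs. An exact sign-flip test of 1 gene over 3 pairs cannot go below p = 0.25, and 3 pairs limit how precisely any difference is known.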

How the data were processed

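Gene expression was measured in 12 arrays, from 4 groups of 3. The authors deposited log2 values made with RMA (version not given in the sources used here), as the submitters' processing notes record; they ranged from 2.43 to 14.95. Of 54613 probe sets besides controls, 41091 had 1 gene symbol, 1801 several and 11721 none in the probe table, and only those with 1 symbol were named. Gene identifiers of 41037 matched RefSeq. Probe sets with a mean over 12 arrays above the 40th percentile (5.39) were kept, and the brightest stood for its gene, leaving 14649 of 19775 genes.

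Within-pair differences, SP minus non-SP, were fitted with limma 3.58.1 in R 4.3.3 (lmFit, eBayes without trend; 2-sided tests, 4 residual and 6.3 prior degrees of freedom), with Benjamini-Hochberg adjustment at 0.05. The anti-EpCAM pairs added only to the estimate of spread. Deviations from group means of untreated arrays of the same number correlated across genes with r of 0.866, 0.72 and 0.892, against -0.755 to -0.0101 for different numbers. In the anti-EpCAM arrays these were 0.838, 0.622 and 0.765, against -0.745 to 0.212. Deviations within a group of 3 sum to 0, so high values for the same number push those for different numbers down. Sorted values differed by a mean of 0.0093 to 0.0213 within pairs and 0.0461 to 0.524 otherwise. Arrays of a pair therefore also look normalised together, so a shared sort and shared processing cannot be told apart. Tested on simulated data, the fit found 90 of 100 genes changed by 0.5, 100 of 100 changed by 1, and 14 of 14349 that had no change. On the untreated arrays 89 genes differed by more than 0.5 in either direction, and 14 genes passed. Whether the shares found in the simulation hold for the arrays was not tested.

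The comparison, the 35 gene lists and the rule for named genes were chosen with earlier results of these data known. The rule took every gene called, the 20 largest differences of each sign with an unadjusted p under 0.01 and 1 sign in all 3 pairs, up to 4 genes of smallest p per list, and 14 genes set by name; other members of small families were named after their values were seen. Over the lists, 59 entries were below the filter and 58 were not analysed here for want of a probe set with 1 gene name. Of the lists, 1 is not reported here. Genome positions are given for promoters alone, from RefSeq. Alternatives covered pairing, scaling, filter, probe set choice, spread estimate, RNA quality and each pair left out.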

Additional observations from a re-analysis of the deposited data

How the results depend on the processing

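All 14 genes kept their sign under all 18 alternatives, 2 of which (the ACTB covariate and a trend on the mean difference) were chosen after seeing the data. Against 14 calls (4 rises, 10 falls), a fit with no replicate block called 0 over 12 or over 6 arrays. The 3 untreated pairs alone gave 10 calls (0 rises), 6 of them among the 14; the filter at the 60th percentile gave 7 rises; and the GAPDH covariate gave 9 calls (2 rises). With a robust spread that follows expression level, 61 genes passed (32 rises, 29 falls), among them all 14 and ABCG2 (adjusted p = 0.00815); with that trend on the mean difference, limma's default here, 0 passed (smallest adjusted p = 0.68, 1068 at an unadjusted p under 0.05). That default was run first, and the trend was moved to expression level after its 0 was seen. Left-out pairs gave 0 to 16 calls: 4 without untreated pair 1 (0 rises, 4 falls), 0 when untreated pair 2, untreated pair 3 or anti-EpCAM pair 2 was omitted, 16 when anti-EpCAM pair 1 and 12 when anti-EpCAM pair 3 was. Over these 6 fits rises ranged from 0 to 3 and falls from 0 to 13. The calls of ATF3, LYPD1 and BCL2A1 held in 2, 3 and 5 of the 18 alternatives, and the other 11 in 8 to 12. For anti-EpCAM pairs, 36 calls became 0 with no replicate block, 14 without the filter, 13 with the mean of probe sets, 90 and 0 with the respective trends, 9 with the GAPDH covariate and 0 to 9 with a treated pair left out. Signs turned for genes near 0: ABCC1 without replicate 3 (0.051); JUN with the mean of probe sets (0.097), without replicate 3 (0.019) or with the ACTB covariate (0.007); TNFRSF10B by quantile normalization (-0.018), centring (-0.01) or without replicate 3 (-0.039). COL5A2 turned with the mean of probe sets (-0.067) and spanned -0.077 to 0.11 over left-out pairs, COL5A3 turned with that mean (-0.002), COL11A2 spanned -0.064 to 0.12, ABCC1 -0.11 to 0.051, JUN -0.026 to 0.019 and TNFRSF10B -0.039 to 0.037. The cause was not tested.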
